A study of Mus musculus with 605 samples.

Results

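The cells described here are 81 single melanocytes from the dorsal skin of wild-type mice at postnatal day 56 (P56), when hair follicles of the back rest in telogen. They were the cells of 1 plate whose TPM summed to 750000 or more, with no more than 20% of it from mitochondrially encoded genes and 1000 or more genes above 0. The rule kept 81 of the 85 deposited wild-type P56 melanocytes, out of 605 cells in the whole series. TPM is a transcript level corrected for length, which can be compared between genes. A gene was called detected where it reached 1 TPM. Where a log2 scale is named, it is log2(TPM per 10000 of the cell's total + 1).

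The series compared wild-type skin with skin of a mouse model of congenital nevi, in which activated Nras (Tyr-Nras Q61K) is expressed from the tyrosinase regulatory region. It holds 7 groups of bulge stem cells, melanocytes and myeloid cells. The wild-type melanocytes are labelled WT with no further allele, and the mutant melanocytes used beside them, labelled Mut, came from dorsal skin of the same age. In the paper's general procedure for cell sorting, dorsal skin was first digested with the enzymes Dispase II and then collagenase I. Cells were caught singly in microfluidic chambers, and the authors left out chambers that appeared empty or held several cells. No doublet caller was run here. The sort for the single melanocytes, their position in the follicle and the animals they came from are not given in the sources used here. Each plate therefore counts as 1 sample, cells are not replicates, and no p-value was computed. Genotype cannot be told apart from plate.

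Melanocytes arise from the neural crest, the migratory embryonic population that also gives rise to Schwann cells and other glia. In a resting hair follicle, melanocyte stem cells share the bulge niche with epithelial stem cells, and pigment is made by their progeny when the follicle grows again. Pigment is built inside melanosomes, lysosome-related organelles with a fibrillar matrix on which the tyrosinase family of enzymes converts tyrosine to melanin. The transcription factor MITF, acting with SOX10 and PAX3, controls the survival of the lineage and the genes of pigment synthesis.

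All but a few of the 81 cells carried the RNA of pigment synthesis. Dct, dopachrome tautomerase of the eumelanin pathway, was detected in 80 of 81 cells (98.8%, exact Clopper-Pearson 95% interval 93.3 to 99.97%). Tyrp1, a melanosomal enzyme of the tyrosinase family, was detected in 78 cells (96.3%, 89.6 to 99.2%). Pmel, which forms the fibrils of the early melanosome, was detected in 72 cells (88.9%, 79.95 to 94.8%), and Mlana, a melanosomal membrane protein, in 71 (87.7%, 78.5 to 93.9%). These intervals cover counting error among cells of this plate only. Detection of the 4 markers together was seen in 66 cells (81.5%, 71.3 to 89.2%). Another 10 cells had 3 of the 4, 4 cells had 1 or 2, and 1 cell had none.

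The same markers were rare in cells that should lack them. All 4 were present in 4 of 83 wild-type P56 bulge cells (4.82%) and in 0 of 73 wild-type P56 myeloid cells, a count that allows up to 4.11% if the limit is set at 3 cells of the total, and up to 4.93% by the exact 95% interval. Those cells had more genes detected, with medians of 4096 in bulge and 2752 in myeloid cells against 2204 in the melanocytes. In the 84 mutant melanocytes, with a median of 2815 genes detected, the 4 markers were found together in 75% (64.4 to 83.8%), an interval that overlaps that of the wild type.

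**Figure D1:**
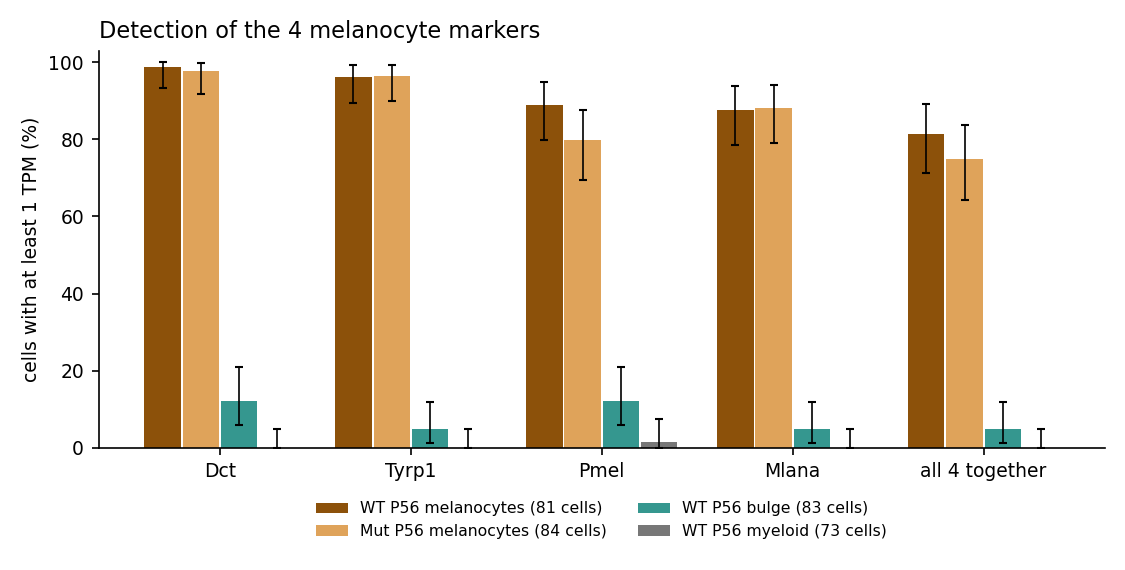
Percentage of cells (vertical axis) with at least 1 TPM of Dct, Tyrp1, Pmel, Mlana and all 4 together in wild-type P56 melanocytes (81 cells), mutant P56 melanocytes (84), wild-type P56 bulge cells (83) and wild-type P56 myeloid cells (73). Error bars are exact 95% intervals for counting error. Each marker lies at 87.7% or more in the wild-type melanocytes and at 12% or less in bulge and myeloid cells.

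Not every kept cell matched the label. By the mean of 11 marker sets, 78 cells had melanocyte as their highest set, and 3 did not. The cell in well A10 held 72197 TPM of 7 summed myeloid markers, led by Cd74 at 41942 TPM, with Dct at 86.7 TPM. In well A4 the same sum was 33061 TPM, beside 1420 TPM of Dct. The cell in well C11 was listed at 0 for each of the 4 melanocyte markers. Its highest levels among the marker sets were Col3a1 at 5651 TPM, a fibrillar collagen, and Cdh19 at 3027 TPM, a cadherin of Schwann cell precursors. A further 8 cells had melanocyte as their highest set and over 1000 summed TPM of keratinocyte or myeloid markers. The largest of these sums were 15616 TPM of keratinocyte markers in well G5, led by Krt14 at 8325 TPM, and 5933 TPM in C12.

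Over all 81 cells the median summed level was 17548 TPM for the 4 melanocyte markers and 0 TPM for keratinocyte, fibroblast, endothelial and myeloid sets. The Schwann cell or glia set was the only other one with a median above 0, at 341 TPM. Its sum reached 4683 TPM and exceeded 1000 TPM in 14 cells. Merkel cell and red blood cell markers were listed at 0 in each of the 81 cells, and mast cell, endothelial and pericyte sums stayed at or below 57.9 TPM. The part of these other markers in the correlations below was not tested. Correlations with the principal components were not recomputed. Those of gene pairs and of list scores were recomputed without the 3 cells (78 cells) and without all 11. The 70 cells left held at most 1000 summed TPM of each of the keratinocyte, myeloid and fibroblast sets. No such limit was set on other marker sets, so that cells with glial markers, which melanocytes share in part, remained among the 70. The sum of T or NK cell markers, also without a limit, reached 665 TPM in the 81 cells.

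Total TPM ranged from 824345 to 918074 per cell, the mitochondrial share from 3.38 to 14% (median 7.56%), and genes above 0 from 1387 to 6298. Since TPM holds no information on reads per cell, depth is unknown and genes detected served as its stand-in. The members just inside the gene limit were the cells in H6 and F8, with 1387 and 1398 genes, and the nearest well outside was G12, with 832 genes and a total of 719806. Of the other wells left out, G2 and H11 held 9 and 16 genes, and F3 held 380 genes with 35.5% mitochondrial TPM.

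Pigment genes were among the most abundant transcripts of these cells. Dct ranged from 0 to 30651 TPM with a median of 10391 TPM, and by mean log2 level it stood behind Malat1 alone, a nuclear noncoding RNA with a median of 16058 TPM, among the 2843 genes considered. Pmel ranged from 0 to 24201 TPM with a median of 3187, Tyrp1 from 0 to 12110.3 with a median of 2109.6, and Mlana from 0 to 2692 with a median of 746. The order of the 4 medians was thus Dct, Pmel, Tyrp1 and Mlana, but the cell-to-cell ranges overlapped throughout. Together the 4 genes took between 0 and 7.22% of a cell's TPM, with a median of 2.02%.

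Other melanosome genes covered a wide range. Cd63, a tetraspanin that sorts Pmel into fibrils, was detected in each of the 81 cells, from 96.3 to 7675 TPM (median 3013). Gpnmb, a melanosomal glycoprotein related to Pmel, reached 93.8% of cells with a median of 549.7 TPM, and Myo5a, the motor that carries melanosomes along actin, 88.9% with a median of 206 TPM. Tyr, the rate-limiting enzyme of melanin synthesis, was far lower than the other enzymes of its family, with detection in 69.1% of cells (57.9 to 78.9%) and a median of 197 TPM. The ion transporters and channels of the melanosome were found in fewer cells, with Trpm1 in 44.4%, Slc45a2 in 43.2% and Slc24a5 in 37%. Mlph and Rab27a, which couple melanosomes to Myo5a, were found in 42% and 40.7%. Oca2 and Hps6 were listed at 0 in all 81 cells, a count that allows up to 3.70%. Of the 32 pigment genes listed, 26 were detected in at least 10% of cells and 9 in over 50%.

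**Figure D2:**
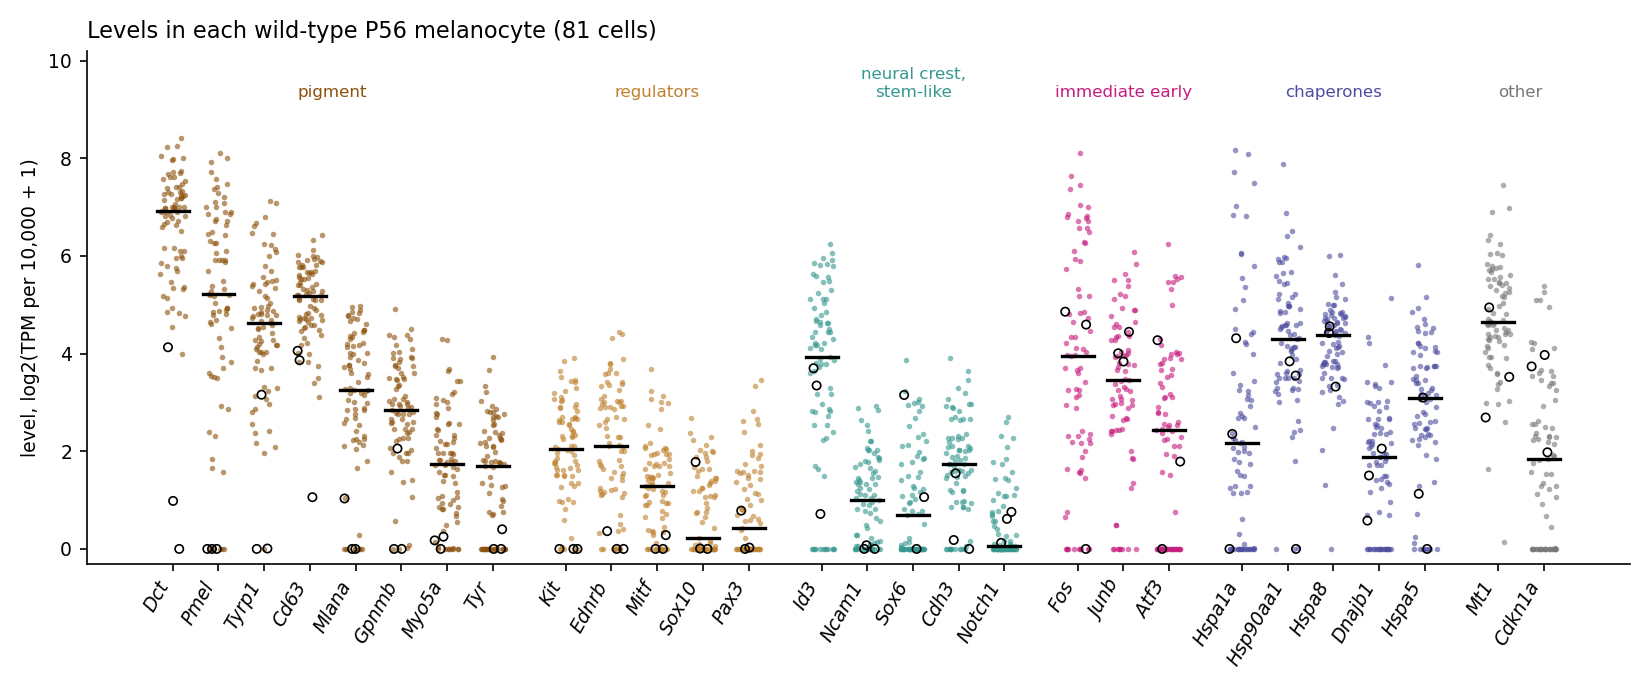
Level of 28 genes in each of the 81 wild-type melanocytes, as log2(TPM per 10000 + 1) on the vertical axis, grouped by role along the horizontal axis. Each point is a cell, black bars are medians, and open circles are the 3 cells whose highest marker set was not melanocyte. Dct lies high in nearly every cell, whereas Pmel, Fos and Hspa1a spread from 0 to over 8 on this scale.

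The promoters of 3 members of the tyrosinase family are shown because they carry the letters CATGTG, an E-box read by MITF in this lineage, and because Dct and Tyrp1 were among the genes that varied together across these cells. Each sequence runs from 250 bases before to 50 bases after the RefSeq transcription start (GRCm38.p6), 5′ to 3′ in the direction of transcription, with matches to CATGTG on either strand in capitals.

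Dct (chr14:118052197-118052496, minus strand): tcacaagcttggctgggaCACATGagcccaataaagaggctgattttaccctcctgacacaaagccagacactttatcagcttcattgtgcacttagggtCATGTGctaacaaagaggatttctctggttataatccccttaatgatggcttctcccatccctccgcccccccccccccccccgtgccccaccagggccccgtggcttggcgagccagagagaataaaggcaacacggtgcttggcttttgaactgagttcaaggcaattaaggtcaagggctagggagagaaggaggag

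Tyrp1 (chr4:80833963-80834262, plus strand): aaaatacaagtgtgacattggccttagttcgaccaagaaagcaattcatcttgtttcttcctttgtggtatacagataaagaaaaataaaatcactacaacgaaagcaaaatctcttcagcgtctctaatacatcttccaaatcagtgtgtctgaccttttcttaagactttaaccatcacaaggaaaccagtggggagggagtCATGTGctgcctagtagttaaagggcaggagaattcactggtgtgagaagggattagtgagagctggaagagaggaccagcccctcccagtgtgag

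Tyr (chr7:87493463-87493762, minus strand): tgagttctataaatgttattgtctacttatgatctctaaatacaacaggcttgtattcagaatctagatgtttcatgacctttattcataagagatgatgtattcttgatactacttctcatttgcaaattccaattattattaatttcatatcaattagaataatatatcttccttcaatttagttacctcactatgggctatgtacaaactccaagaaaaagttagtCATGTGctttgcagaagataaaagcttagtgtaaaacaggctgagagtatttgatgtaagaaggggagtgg

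The match begins 150 bases before the start in Dct, with another on the opposite strand at 232, 46 bases before it in Tyrp1 and 21 in Tyr. In all 3 promoters the longer string TCATGTG was present. Over the 32851 RefSeq promoters of this length, 14.2% held CATGTG on either strand, and 3.77% held TCATGTG, of which every match is also a CATGTG match. These are matches of letters and not measured binding. Pmel and Mlana were not matched in the promoter table.

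The marker genes varied together from cell to cell. Across the 81 cells, Spearman's rho for the 6 pairs among Dct, Pmel, Tyrp1 and Mlana lay between 0.44 and 0.70. Dct and Pmel gave the highest value (rho 0.70, Pearson's r 0.63), followed by Pmel and Tyrp1 (0.67, r 0.59) and Dct and Tyrp1 (0.65, r 0.70). Mlana was correlated less closely with Tyrp1 (0.44, r 0.49). Among the 78 cells with a melanocyte marker set highest, the 6 values lay between 0.39 and 0.67. In the 70 cells under the marker limit they lay between 0.33 and 0.66. As background, 1.09% of all 22174470 pairs of genes detected in at least 10% of these cells had a rho above 0.3, and 0.0884% were below −0.3, with a median of 0.02. These are descriptions over cells that share 1 plate and its library preparation.

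The high end of this pattern was formed by the cells in H7 and F10. The cell in H7 held 30651 TPM of Dct, 23037 of Pmel, 8655 of Tyrp1 and 2479.8 of Mlana. In F10 the values were 26731, 24201, 9599 and 2198 TPM. Their breadth was close to the plate median of 2204, at 2068 and 2235 genes detected. Pmel was not detected in 9 cells, among them A10, A4 and C11, whose highest marker set was not melanocyte. Of these 9 cells, 8 had some Dct, up to 17867 TPM in D3, so they were not all low in pigment genes.

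The correlations did not extend evenly through the pathway. Tyr was only weakly correlated with Tyrp1 (rho 0.24, r 0.28), Dct (0.24, r 0.27) and Pmel (0.17, r 0.14), and its highest partner among the genes plotted was Mitf (0.33, r 0.31). Gpnmb was correlated with Pmel (0.40, r 0.37) and Dct (0.39, r 0.51), but at 0.29 and 0.27 in the 70 cells under the marker limit. Over the 26 pigment genes described, 37 of 325 pairs (11.4%) exceeded 0.3, and the median pair stood at 0.08. In the 70 cells under the marker limit the number was 28 of 325, with a median of 0.08.

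**Figure D3:**
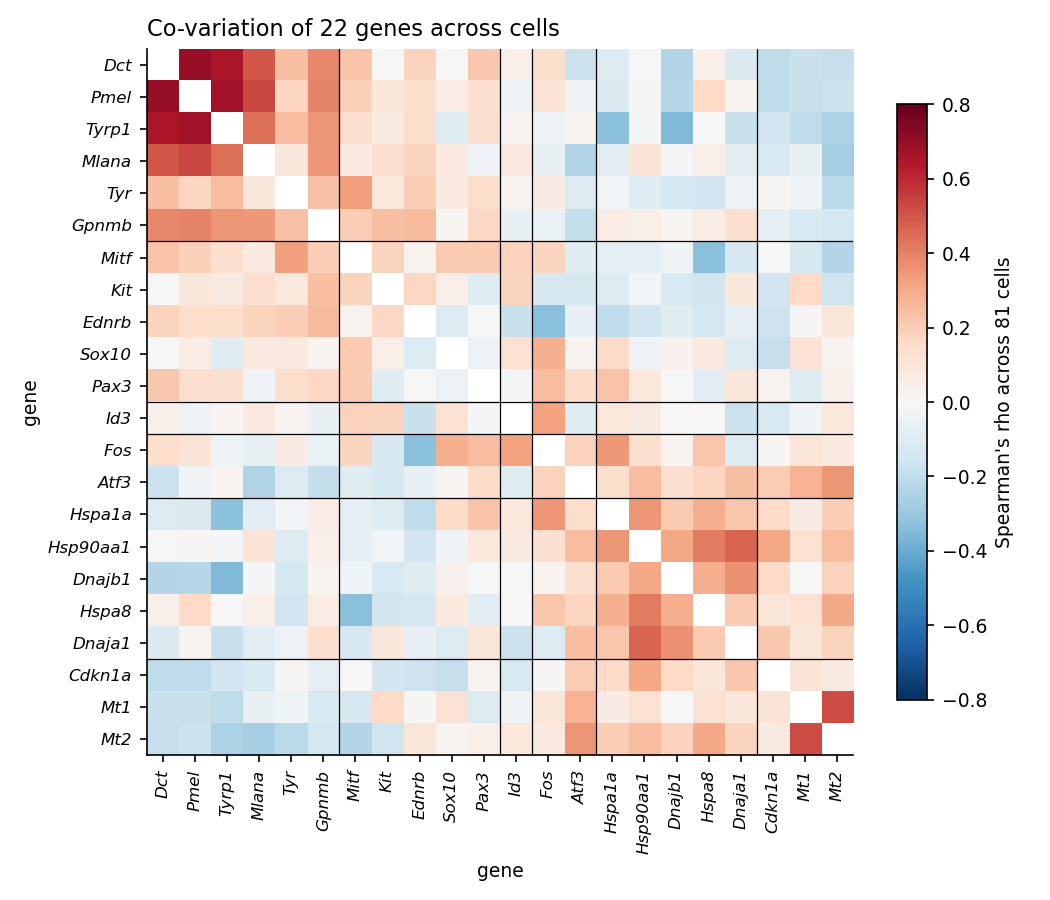
Spearman's rho across the 81 cells for each pair of 22 genes, with red for positive and blue for negative values and black lines between groups of related function. The block at the upper left holds Dct, Pmel, Tyrp1 and Mlana at 0.44 to 0.70, and the block of heat-shock chaperones is paler.

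Genes outside the list were ranked by their rho with the pigment score, the mean log2 level of the 26 described pigment genes. This ranking and those by other scores below are given over all 81 cells, including those with markers of other lineages. Of 2827 genes ranked, 57 (2.02%) lay above 0.3 and 11 (0.389%) below −0.3. Mgll, monoglyceride lipase, stood highest at 0.56. It was detected in 93.8% of cells, with a median of 693 TPM, and its rho with Dct was 0.57 (r 0.49). In the mutant melanocytes the same gene gave 0.65 with the pigment score and 0.68 with Dct.

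Cdk2, a cyclin-dependent kinase, came next at 0.56 with the pigment score, and at 0.53 with Pmel (r 0.49). This pair has overlapping annotations on opposite strands. Pmel lies at chr10:128704195-128720238 on the plus strand and Cdk2 at chr10:128697939-128705031 on the minus strand (GRCm38), so 837 bases belong to both genes. The authors' quantification is not stated to use strand, and reads from those bases cannot then be told apart. Cdk2 was detected in 5 of the 9 cells without Pmel and in 45.8% of bulge cells. Its rho was 0.43 with Tyrp1 (r 0.40), a gene whose own rho with Pmel was 0.67, and 0.17 with Mlana (r 0.12). The part of the shared bases in these values was not tested.

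Tspan10, a tetraspanin, had a rho of 0.43 with the pigment score here and 0.61 in the mutant cells. Gsta1, a glutathione transferase, had 0.44 with the score and 0.53 with Pmel (r 0.59), against 0.13 with Pmel in the mutant cells. Fmn1, Fam174b, Kdsr, Tspan7, Fbxo32 and Bace2 completed the 10 highest, from 0.42 to 0.47. At the other end stood Gsn, the actin-severing protein gelsolin, at −0.45 (76.5% of cells, median 254 TPM), then Slc27a1 and Eif3l at −0.37 each. Btg2, Zfp36 and Fosl2, genes of the immediate early response, were also among the 10 lowest, between −0.36 and −0.32. The score of the whole immediate early list gave −0.28 with the pigment score in the 81 cells, but −0.10 in the 70 cells under the marker limit.

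The transcription factors and receptors that specify melanocytes were detected in most cells at low levels. Kit, the receptor for stem cell factor on which melanoblasts depend, was detected in 90.1% of cells (81.5 to 95.6%), with a median of 276 TPM. Ednrb, the endothelin receptor of the lineage, reached 86.4% with a median of 302 TPM, and Mitf 81.5% with a median of 127 TPM. Sox10 (58%, median 15.2 TPM) and Pax3 (54.3%, median 31.1 TPM) were found in fewer cells. Bcl2, a survival factor of melanocyte stem cells, was present in 67.9%. Mc1r, the receptor that directs eumelanin synthesis, was detected in 13.6%, and Lef1, a partner of β-catenin, in 3.70%.

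Few cells lacked this programme altogether. Counting Mitf, Sox10, Pax3, Kit and Ednrb, 16 cells had all 5, 36 had 4, 21 had 3, 5 had 2 and 3 had 1, and no cell had none of them. Sox10 and Pax3 were both detected in 23 cells, Sox10 without Pax3 in 24, Pax3 without Sox10 in 21 and neither in 13. The level of the regulators followed the pigment genes loosely. The rho of Mitf was 0.33 with Tyr (r 0.31), 0.23 with Dct (r 0.29) and 0.19 with Pmel (r 0.12), and in the 70 cells under the marker limit these were 0.26, 0.15 and 0.096. Kit and Dct gave a rho of −0.0042 but an r of 0.22, and the rho was −0.25 in those 70 cells. Of the 105 pairs among the 15 regulators described, 1 exceeded 0.3. The regulator score had a rho of 0.29 with the pigment score (r 0.37), falling to 0.14 in the 70 cells under the marker limit, against 0.58 in the mutant cells.

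Part of the neural crest repertoire was detected in most cells and part in none. Id3, an inhibitor of differentiation factors, was detected in 85.2% of cells and reached 6523 TPM (median 1257), the highest median of that list. Id2 followed with 74.1% and a median of 281 TPM. The adhesion molecule Ncam1 was found in 77.8%, the transcription factor Tfap2b in 70.4% and Sox6 in 58%. Of the multipotency factors, Foxd3 was detected in 8.64% and Snai2 in 9.88%. Sox2, Twist1, Nes and Gap43 were listed at 0 in all 81 cells, which allows up to 3.70% each. Ngfr, the p75 receptor of neural crest stem cells, was found in 3 cells, with its highest level, 887 TPM, in the cell of C11 that lacked the melanocyte markers.

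The glial genes S100b (28.4%) and Cdh19 (29.6%) were each found in under 30% of cells. Mbp, which encodes myelin basic protein, was found in 8 cells and was highest in the cell of C4, which held 1756 TPM of it beside 2383 TPM of Dct and 2456 TPM of Pmel. Over the 17 neural crest genes described, 4 of 136 pairs (2.94%) exceeded 0.3, and the median of 0.02 equalled the median of all pairs.

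Genes linked to stem cells and quiescence showed no common axis. Cdh3, which encodes P-cadherin, was found in 85.2% of cells with a median of 197 TPM. The cell cycle inhibitors Cdkn1b and Cdkn1a were found in 77.8% and 69.1%, with medians of 20.8 and 226 TPM, and Cdkn1a reached 3572 TPM. Nfia, a nuclear factor I gene, was detected in 79%. Notch2 and Notch1, receptors of the pathway that maintains melanocyte stem cells, were detected in 63% and 51.9%, and their target Hes1 in 35.8%. Cd34 and Col17a1, genes of bulge stem cells, were found in 1 and 2 cells, and the aldehyde dehydrogenases Aldh1a1 and Aldh1a3 were listed at 0. None of the 190 pairs among the 20 genes described exceeded 0.3, and their median was 0.00. The rho of this score with the pigment score was 0.04 (r 0.05).

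The neural crest score was weakly correlated with the pigment score (rho 0.23, r 0.25), and the value was 0.15 in the 70 cells under the marker limit. Of 2828 genes ranked by rho with the neural crest score, 20 (0.707%) exceeded 0.3 and 10 (0.354%) lay below −0.3. Eci2, an enzyme of fatty acid oxidation, stood highest at 0.46, and Fos, at 0.35, was also among the 10 highest. Sidt2 stood lowest at −0.43, followed by Ranbp1 at −0.39.

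Proliferation genes were nearly absent. Of 13 genes of DNA replication and mitosis, 57 cells had none, 19 had 1 and 5 had 2 or more, with at most 3 in the cell of C12. Mki67 was detected in 1 cell, Top2a in 2 and Cdk1 in 3. Ccnb1, Birc5, Aurkb and Plk1 were listed at 0 in each cell, which allows up to 3.70%. Pcna, which also serves DNA repair, was found in 65.4% with a median of 172 TPM. Of the senescence markers, Cdkn2a was listed at 0 and Cdkn2b was found in 1 cell. Of 12 secreted factors that the study examined, Spp1, Igfbp2, Bmp4, Frzb and Wisp1 were listed at 0 in all 81 cells. The other 7 were detected, Fstl1 in 12.3% of cells, Igfbp4 in 4.94%, Igfbp7 in 3.70%, Wif1 in 2.47%, and Dhh, Fgf7 and Tnf in 1 cell each. Only 1 of the 12 reached 10% of cells in this plate or in the mutant plate.

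**Figure D4:**
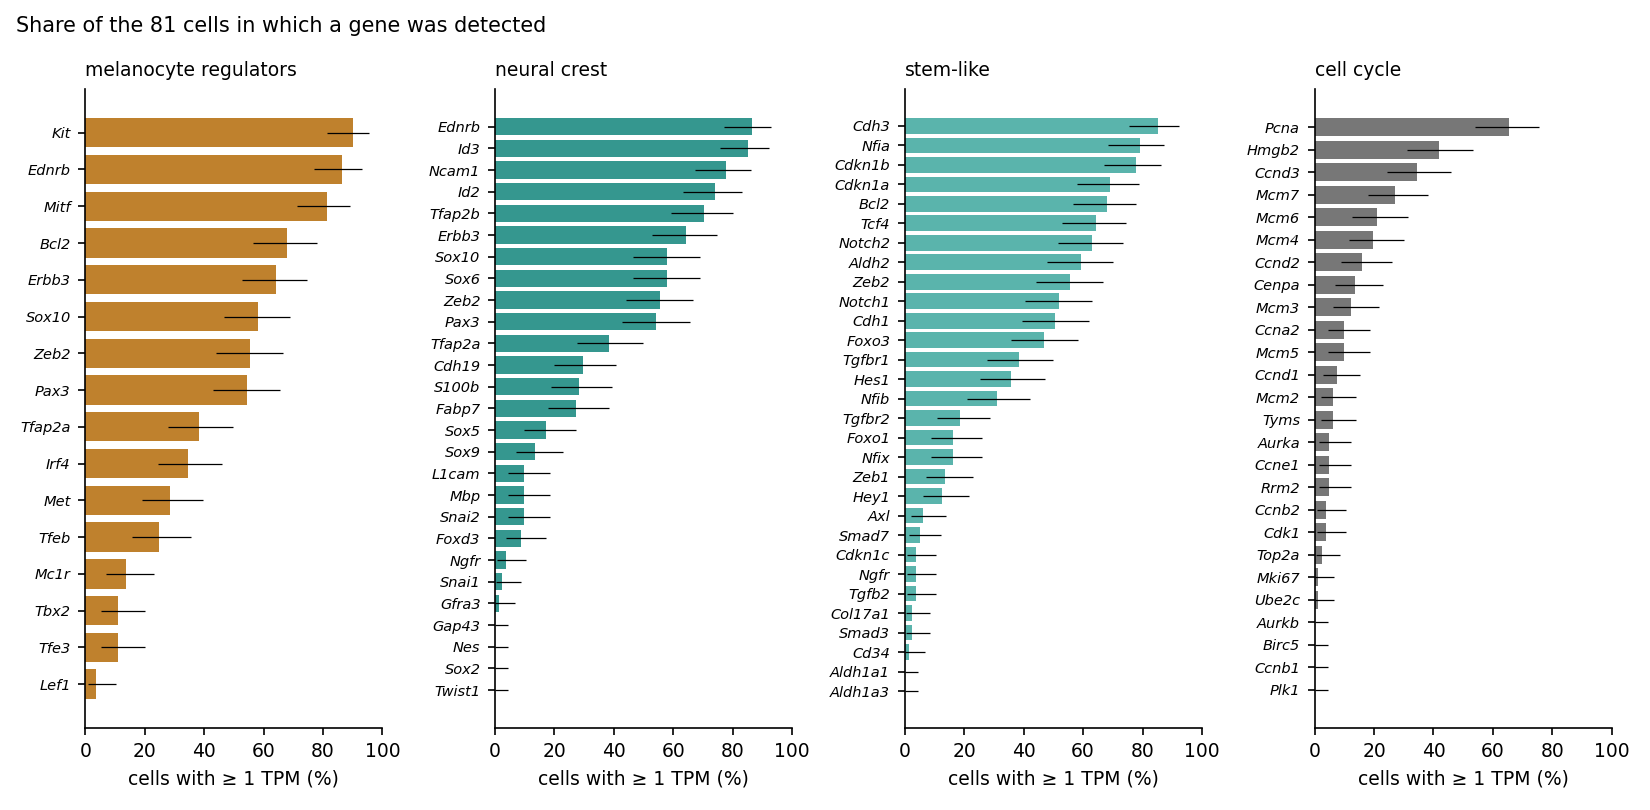
Percentage of the 81 cells (horizontal axes) with at least 1 TPM of genes from 4 lists, of melanocyte regulators, neural crest, stem-like and cell cycle genes. Lines are exact 95% intervals for counting error. Kit, Ednrb, Id3 and Cdh3 head their lists at 85.2% or more, and the mitotic genes lie at the bottom of theirs.

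Chaperone RNA was plentiful and, for the heat-inducible genes, very uneven. Hspa8, the constitutive HSP70, was detected in 98.8% of cells with a median of 1725 TPM and a maximum of 5724. Hsp90aa1, the inducible HSP90, ranged from 0 to 20792 TPM with a median of 1578, and its constitutive partner Hsp90ab1 from 0 to 3301 with a median of 863. Hspa1a, the main inducible HSP70, was detected in 75.3% of cells, with a median of 312 TPM and a maximum of 25818 TPM in the cell of G10. It exceeded 1000 TPM in 21 cells and 10000 TPM in 6. Its SD on the log2 scale, 2.30, was equal to that of Pmel. The HSP40 co-chaperones Dnajb1 and Dnaja1 were found in 75.3% and 76.5%, with medians of 237 and 413 TPM. The small heat-shock proteins Hspb1 and Cryab were detected in 13.6% and 7.41%.

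The Hspa1a promoter is shown because this gene had the widest range of the chaperones. Capitals mark GAAGATTC, a match to GAANNTTC, the paired repeat that heat-shock factors bind, which begins 104 bases before the start.

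Hspa1a (chr17:34972107-34972406, minus strand): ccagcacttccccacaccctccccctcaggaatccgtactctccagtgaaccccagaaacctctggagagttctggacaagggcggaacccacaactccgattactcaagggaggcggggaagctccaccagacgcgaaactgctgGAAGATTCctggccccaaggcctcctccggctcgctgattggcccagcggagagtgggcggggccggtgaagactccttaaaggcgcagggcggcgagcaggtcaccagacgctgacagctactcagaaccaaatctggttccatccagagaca

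GAANNTTC, which reads the same on both strands, was present in 7.86% of the 32851 promoters. The neighbouring copy Hspa1b has a promoter identical to this at 296 of 300 positions, and 62.3% of the 50-base words of its transcript occur in Hspa1a. The split of reads between these copies is therefore uncertain. Hspa1b was listed at no more than 275 TPM, and its rho with Hspa1a, 0.79 (r 0.70), was the highest of the 13695 pairs of list genes. Hsp90aa1 and Hspa8 were not matched in the promoter table.

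Among the chaperones that do not share sequence in this way, Dnaja1 and Hsp90aa1 gave a rho of 0.47 (r 0.42), Hsp90aa1 and Hspa8 0.41 (r 0.42) and Hsp90aa1 and Hspa1a 0.36 (r 0.38). Hspa1a was correlated with Dnajb1 at only 0.21 (r 0.16). In all, 12 of 351 pairs among the 27 chaperones described (3.42%) exceeded 0.3, with a median of 0.07. Of 2819 genes ranked by rho with the cytosolic chaperone score, 60 (2.13%) exceeded 0.3 and 6 (0.213%) lay below −0.3. B4galt5, a Golgi galactosyltransferase, stood highest at 0.53, followed by Hspa5, the HSP70 of the endoplasmic reticulum, at 0.52. Hspa5 was detected in 88.9% of cells, with a median of 672 TPM. The lowest 10 included Ldhb (−0.37), a lactate dehydrogenase subunit.

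The other protein and oxidative stress genes were as unevenly detected. Atf4, the effector of the integrated stress response, was found in 87.7% of cells with a median of 399 TPM, and its target Ddit3 in 27.2%. Calr, a chaperone of glycoproteins in the endoplasmic reticulum, was found in 81.5% with a median of 159 TPM, and Dnajb9, an HSP40 of that compartment, in 79% with 429.9 TPM. Of 210 pairs among 21 genes of the list, 3 exceeded 0.3 and the median was 0.03. Among genes of oxidative stress, Sqstm1, an autophagy receptor, was detected in 98.8% with a median of 2079 TPM and Gpx4, which reduces lipid peroxides, in 93.8% with 1032 TPM. Hmox1 and Nqo1, enzymes induced by NRF2, were found in 17.3% and 3.70%. In this list 3 of 210 pairs exceeded 0.3, with a median of 0.02, so that Mt1 and Mt2 (0.52) were an exception.

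The immediate early genes, transcription factors and regulators induced within minutes of a stimulus, had the largest share of correlated pairs of the lists described. Fos was detected in 86.4% of cells, with a median of 1295 TPM and a maximum of 24190.1 TPM in the cell of G5, and it exceeded 10000 TPM in 6 cells. Junb was found in 90.1% with a median of 864 TPM, Fosb in 85.2% with 118 and Ppp1r15a in 84% with 429. Atf3 ranged up to 6581 TPM, again in G5, with a median of 379. The cell of G5 also carried the highest keratinocyte sum. Ier2 and Dusp1 were found in under 50% of cells.

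Of 253 pairs among 23 immediate early genes, 75 (29.6%) exceeded 0.3 and the median was 0.20. In the 70 cells under the marker limit these values were 63 pairs and 0.18. Egr1 and Fosb gave 0.63 (r 0.62), Fos and Ier2 0.62 (r 0.61) and Fos and Jun 0.58 (r 0.59). Fos also exceeded every other gene in its SD over cells relative to genes of like mean level, ahead of Pmel and Hspa1a. This ranking covers the 2843 genes considered.

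Chaperone and immediate early levels were correlated. The part of tissue digestion and sorting in the levels of these genes, and in their correlation, was not tested. Their scores gave a rho of 0.37 (r 0.41), and 0.40 in the 70 cells under the marker limit. Hspa1a gave 0.48 with Jun (r 0.55) and 0.35 with Fos (r 0.35). Of 2823 genes ranked by rho with the immediate early score, 33 (1.17%) exceeded 0.3 and 13 (0.461%) lay below −0.3. Hspa1b (0.44), Hspa8 (0.43) and Hspa1a (0.42) were 3 of the 5 highest, and Irf1, an interferon regulatory factor, led at 0.54. The chaperone score was also correlated with the score of endoplasmic reticulum chaperones and unfolded protein genes (0.46, r 0.42). It gave 0.44 with the score of 9 cell cycle genes led by Pcna and Hmgb2 (r 0.49), 0.38 in the 70 cells under the marker limit and 0.26 in the mutant cells. With the oxidative stress list it gave 0.37 (r 0.40). The immediate early score in turn gave 0.45 with the p53 and senescence list (r 0.44), in which Cdkn1a, Gadd45b (56.8% of cells) and Trp53 (55.6%) were found most often.

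Pigment and stress scores were then compared. The immediate early score had a rho of −0.28 with the pigment score (r −0.34), but −0.10 in the 70 cells under the marker limit. The chaperone score had −0.12 (r −0.11), and its sign turned with the setting, from −0.28 in well rows E to H to 0.065 in rows A to D and 0.12 on the deposited TPM scale. The oxidative stress score was positively correlated with the pigment score (0.23, r 0.18), with 0.30 in the 70 cells. Mlph and Nfkbia, an inhibitor of NF-κB, had the lowest rho of the 13695 pairs of list genes (−0.48, r −0.48). It was −0.61 in well rows A to D, −0.31 in rows E to H and −0.19 in the mutant cells. Tyrp1 and Dnajb1, another pair picked from the low end, gave −0.35 (r −0.28), and −0.08 in the mutant cells. Over all pairs of genes, 0.0884% lay below −0.3. Fos itself was not opposed to Dct (0.14, r 0.13) or Pmel (0.11, r 0.13). The pigment score gave a rho of 0.26 with genes detected per cell but a Pearson's r of −0.01, the chaperone score 0.18 and the immediate early score 0.12. Of the 2843 genes, 8.69% had a rho above 0.3 with genes detected and 0.141% below −0.3. With ranks adjusted for genes detected, the chaperone and immediate early value was 0.36, and the pigment and immediate early value −0.32.

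**Figure D5:**
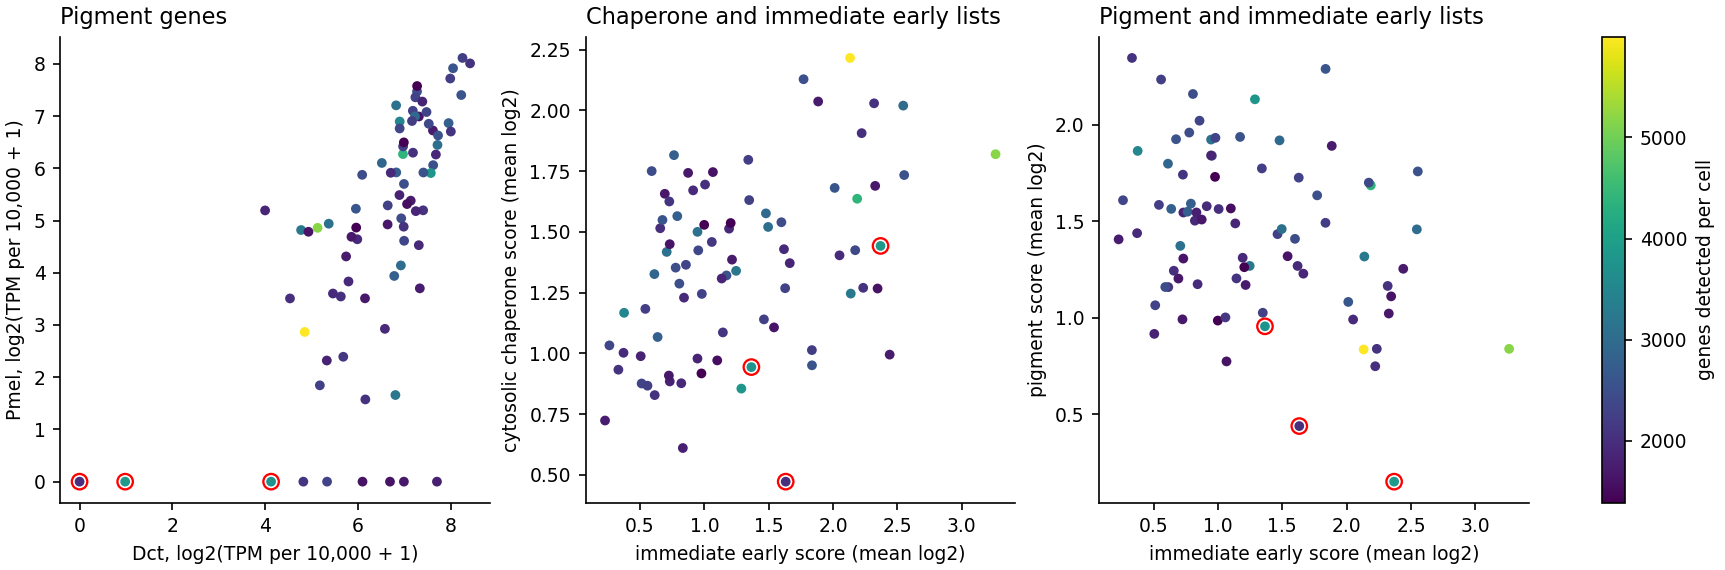
Each point is 1 of the 81 cells, coloured by the number of genes detected, and red rings mark the 3 cells whose highest marker set was not melanocyte. Left, Pmel against Dct as log2(TPM per 10000 + 1) (rho 0.70). Middle, chaperone against immediate early score (rho 0.37). Right, pigment against immediate early score (rho −0.28), where ringed cells lie at the lower end of the pigment axis.

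No clustering of the cells is given here, so a division of the plate into groups was not examined. The first component of the log2 levels carried 3.41% of the variance and the second 2.64%. The second had a rho of 0.70 with the pigment score and −0.52 with the immediate early score. Its largest positive loadings were Pmel, Tyrp1, Dct, Sepp1 and Gsta1, and its largest negative ones Nfkbia, S100a6, Dusp1 and Crip1. Pmel, Tyrp1 and Dct are themselves members of the pigment score. S100a6, Crip1 and Tmsb4x had their highest levels in the cells of A10 and A4 that carried myeloid markers. On the second component the cells of C11 and A10 lay lowest, at −31.7 and −21.4, and A4 lay at −14.6. The components and their correlations were not recomputed without these cells. The first component had Fos at its positive end and Ifrd1, Arf4 and Tnfrsf12a at its negative end. Its rho with the immediate early score was only 0.05. With the endoplasmic reticulum chaperone score it was −0.43, with cytosolic chaperones −0.39, with housekeeping genes −0.34 and with neural crest genes 0.31.

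Set beside the 84 mutant melanocytes, the wild-type cells had lower mean log2 levels for most genes compared, pigment genes included. They also had fewer genes detected, with a median of 2204 against 2815. The wild-type mean was higher for 8 of 29 pigment genes, with a median difference of −0.08, where 39.3% of 8304 genes were higher in the wild type and the median difference of all genes was −0.03. Dct had a median of 10391 TPM here and 16475 TPM in the mutant cells (log2 difference of means −0.56), and Mlana 746 against 1884 TPM (−0.93). Pmel had nearly equal medians, at 3187 and 3232 TPM, but was found in 88.9% against 79.8% of cells, and its mean log2 difference was 0.65. The sign was thus not shared by all 4 markers.

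Cytosolic chaperones were higher in the wild-type cells for 21 of 28 genes, among them Hsp90aa1 at 1578 against 723 TPM. Their median difference was 0.15 on the log2 scale, against −0.03 for all genes, of which 39.3% were higher. This was not particular to chaperones, since 64 of 81 ribosomal protein genes were also higher, with a median difference of 0.18. Housekeeping genes were higher for 7 of 14, with a median difference of 0.15. Id3 had the largest gap of the genes described, with a median of 1257 TPM against 149.7 TPM, a log2 difference of 1.96. Immediate early genes moved both ways, since Fos was lower in the wild-type cells (1295 against 3239 TPM) and Ppp1r15a higher (429 against 138 TPM). The marker pairs Dct and Pmel, and Pmel and Tyrp1, stood at 0.56 and 0.69 in the mutant plate, where 1.2% of pairs exceeded 0.3. These are differences between 2 plates without a replicate check.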

How the data were processed

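Single melanocytes, bulge cells and myeloid cells were profiled by full-length cDNA sequencing after microfluidic capture. The deposited values are TPM, which the authors made by aligning reads with STAR (2.4.2 in the submitters' processing notes) to GRCm38 (mm10) and quantifying genes with RSEM, per the paper's methods. The methods name FPKM for quantified values, whereas the deposited tables name TPM. Tables hold 31002 identifiers, and values of 40 repeated symbols were averaged, leaving 30957. Genes outside the tables are missing from the column sums. TPM keeps no depth.

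Cells were kept by the limits given in the report. Bulge cells needed 2000 to 7000 genes above 0. TPM was rescaled to 10000 per cell, and log2 was taken after adding a pseudocount of 1. List scores average the members that 10% or more of the cells expressed at 1 TPM, and genes present in both lists of a pair were left out of both scores. Named genes were detected in at least 25% of cells and were not mitochondrial, ribosomal protein or predicted genes or pseudogenes. They were the 20 highest in mean, the 20 whose SD lay farthest above a running median over 101 genes, the 10 highest and 10 lowest in rho with the pigment, chaperone and neural crest scores, the 10 with the largest loadings of each sign on 2 components, and list members. A few genes that these rules select are left out of the text and figures. The immediate early ranking and the named wells were added after values were seen. The cells, members and lists were chosen with earlier results of these data known. Gene positions are from GENCODE and promoters from RefSeq, both on GRCm38. A single myeloid column (1) without a label was not used. The remaining 3 tables were not used here. Alternatives changed the cell filter, the scale, the detection limit of lists and the correlation measure, and used each part of the plate.

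Scripts ran under Python 3.11.15 with SciPy 1.17.1, pandas 2.3.3, NumPy 2.4.6 and matplotlib 3.10.9. The correlation steps were tested on simulated data.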

Additional observations from a re-analysis of the deposited data

How the results depend on the processing

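For 10 results, 99 of 113 alternative values moved by no more than 0.1 in rho, or stayed within the interval of the share. The median pair values of the pigment, neural crest and chaperone lists were 0.08, 0.02 and 0.07. A limit of 0.1 is wide beside these, so their count of unmoved values says little. The neural crest median, for example, was 0.05 with members detected in 25% of cells and counted as unmoved. Alternatives used all 85 cells, the 52 with 2000 to 7000 genes, the 78 and 70 cells described above, well rows A to D (40 cells) and E to H (41), other scales, other detection limits and Pearson's r. The set of 70 cells was chosen after seeing the data. The cause of the larger moves was not tested. The median pigment pair rose to 0.18 with members detected in 25% of cells. The pigment and chaperone rho was −0.014 over all cells, 0.065 in rows A to D, −0.28 in rows E to H and 0.12 on the deposited TPM scale, so its sign changed with the setting. The pigment and neural crest rho was 0.10 with 2000 to 7000 genes. The pigment and immediate early rho was −0.16 over all cells and −0.10 in the 70 cells. The chaperone and immediate early rho was 0.49 in rows E to H. The rho of pigment score and genes detected was 0.082 with 2000 to 7000 genes, 0.42 in rows E to H, 0.41 in the 70 cells and 0.46 on the deposited TPM scale, and Pearson's r turned it to −0.014. Over 16 gene pairs, 11 of 112 values moved by more than 0.1. No paired analysis was possible because the labels name no replicate and no test was made. TPM gives no depth, so a gene listed at 0 may be present below detection.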

Other observations

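Antigen presentation genes formed a second coherent group in the wild-type melanocytes. B2m, the light chain of MHC class I, was detected in each of the 81 cells, from 937 to 21383 TPM with a median of 5439. The heavy chains H2-D1 and H2-K1 had medians of 1553 and 822 TPM. Of 78 pairs among 13 genes of this list, 15 (19.2%) had a rho above 0.3, with a median of 0.21. B2m and H2-D1 gave 0.65 (r 0.64). MHC class I genes are near-identical in part, and the split of reads among heavy chains is uncertain. The cell of D5 stood at the top of the interferon-induced gene Ifitm3 (6584 TPM), which was detected in 32.1% of cells. The MHC class I and interferon scores gave a rho of 0.44 (r 0.60). In the mutant plate the mean log2 level of all 14 MHC class I genes was higher, with a median difference of −0.46 for wild type minus mutant. Of all 8304 genes compared, 39.3% were higher in the wild type, and their median difference was −0.03. The mutant cells also had more genes detected, with a median of 2815 against 2204.

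Metal and iron genes were high in nearly every cell. Metallothionein Mt1 ranged from 9.11 to 15734 TPM with a median of 2065, and its rho with Mt2 was 0.52 (r 0.50). The ferritin subunits Fth1 and Ftl1 had medians of 3218 and 3963 TPM. Together these 4 genes took 0.660 to 3.20% of a cell's TPM. Ribosomal protein genes took 2.98 to 17.1% of TPM with a median of 11.3%, and 7.93% of their 3240 pairs exceeded 0.3, against 42.7% in the mutant cells. Their score had a rho of 0.40 with genes detected.

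Among the most abundant transcripts that are no pigment genes stood Ptgds, prostaglandin D2 synthase, with a median of 3364 TPM in 95.1% of the melanocytes and detection in 4.82% of wild-type bulge cells. Its rho was 0.45 with Pmel (r 0.37) and 0.32 with Dct (r 0.38). The WNT list, of which Ctnnb1 (91.4%) and Dkk3 (87.7%) were found most often, had a rho of −0.35 with the immediate early score (r −0.35), against 0.03 in the mutant cells. The difference between the plates was not tested.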
